A study of Mus musculus with 4 samples.

Results

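Receptors with 7 membrane-spanning stretches that signal through G proteins were measured in RNA from CD8+ T cells of mice, the lymphocytes that kill infected cells. The group holds the genes named Gpr followed by a number, the adhesion receptors named Adgr, and the receptors for lysophosphatidic acid (Lpar), nucleotides (P2ry) and prostaglandin E2 (Ptger), without Gpr183 and Adgre1. A gene was taken where the mean normalized count of the 4 libraries was at least 20, which left 55 of 116 genes with such names, out of 49490 genes in the table. The cells came from spleens and lymph nodes and were activated in culture, and their polyadenylated RNA was sequenced. Of the 4 libraries, 2 are labelled Irf8 knockout (Irf8-/-) and 2 are labelled WT, which the series design gives as Irf8fl/fl, an Irf8 allele flanked by recombination sites. Irf8 is a transcription factor of the interferon regulatory family, best known for the development of dendritic cells, and the comparison asks which genes it regulates. The sources used here give no Cre driver, age of the mice or number of animals and cultures, so each p below measures only the spread between libraries, which may be technical.

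As background, a ligand-bound receptor of this kind activates a G protein of an alpha, a beta and a gamma subunit. Gs subunits raise cyclic AMP through adenylyl cyclases, Gi subunits lower it, Gq subunits act through phospholipase C beta, and G12/13 subunits act through RhoGEFs on the cytoskeleton. In T cells, prostaglandin E2 acting through cyclic AMP restrains activation, and lysophospholipid receptors take part in migration and in setting the strength of the response. Adhesion receptors carry a long extracellular part and cleave themselves at a site close to the membrane. Many Gpr genes are orphans, receptors with no settled ligand, and some proteins with this name sit in the Golgi or in lysosomes and not at the cell surface.

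The libraries held 59091255 and 59489280 reads under the knockout label and 58899365 and 59724952 reads under the WT label. Irf8 itself had normalized counts of 89508 and 90222 in the knockout-labelled libraries, against 6364 and 6081 in the WT-labelled libraries. The targeted gene thus goes against the label, and all fold changes set the knockout-labelled libraries over the WT-labelled ones as the labels stand. All 10 T cell markers were measured in each library and all 10 were lower under the knockout label, with a summed level of 304773 and 312665 against 480481 and 478988, or 64.4% of the WT-labelled level. All 11 plasmacytoid dendritic cell markers were higher, with a summed level of 269828 and 268173 in the knockout-labelled libraries against 18014 and 17955 in the WT-labelled libraries. None of these 21 markers was at 0 in both libraries of a group. Cd3d had a log2 fold change of -0.81 and Cd3g of -0.75, while Siglech, a receptor of plasmacytoid dendritic cells, had 8.70 and Ccr9, a homing receptor, 5.67. Of the other marker lists, conventional dendritic cell genes were higher in 7 of 8, B cell genes in 2 of 6, neutrophil genes in 6 of 6 and mast cell and basophil genes in 4 of 5, while macrophage genes were higher in 1 and lower in 5 of 9 and NK cell genes lower in 2 of 4. The listed neutrophil marker Ly6g and B cell marker Pax5 were too low to be tested and are not in these counts. By limma at an adjusted p under 0.05, 19.9% of all genes tested were higher and 13.4% lower. The neutrophil markers Elane, Mpo and Camp and the mast cell markers Ms4a2 and Fcer1a were at 0 in both WT-labelled libraries. In bulk RNA, fewer cells of a type and less RNA per cell cannot be told apart, and the part of these markers in the receptor results was not tested.

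All 55 members passed the filter on low values. At an adjusted p under 0.05 by limma, 23 members were higher and 11 lower in the knockout-labelled libraries, or 41.8% and 20% of them, beside 19.9% and 13.4% of the 18378 genes tested (33.4% in either direction). The median log2 fold change was 0.28 over the members and 0.02 over all genes tested. These counts are a description: the level threshold lets in a gene that is nearly silent in 1 group only through the other, and 8 members had a mean under 20 in the WT-labelled libraries and 3 under the knockout label. Of the 23 higher members, 6 were of that kind and 17 had a WT-labelled mean of at least 20, and of the 11 lower members 1 was of that kind. Of the calls, 11 were over 4-fold higher on the fitted log2 scale (background 6.58%) and 0 over 4-fold lower (background 0.174%). Gpr83, at 4.12-fold by group means and a fitted log2 fold change of 1.97, is not among them. Gpr4, Gpr85, Gpr25 and Adgrg6, which are among those 11, had a WT-labelled mean under 20. So did Gpr83 and Adgra2, which were also called higher. Gpr153, called lower, had a mean under 20 under the knockout label. Values of the groups did not overlap in 43 members (background 68.8%), 28 with the knockout-labelled libraries on top (background 36.5%) and 15 with the WT-labelled ones on top (background 32.3%). All 23 members called higher and all 11 called lower are among these 43, so a lack of overlap adds nothing to a call. Among the 23 members with a mean of at least 1000, 9 were higher and 7 lower (background 21.8% and 24.1%), and among the 32 below that level 14 were higher and 4 lower (background 18.6% and 5.69%). With every library centred on its own median, the all-gene median shifted by -0.30 on the log2 scale, and 20 members were called higher and 18 lower. Higher members then made up 52.6% of the member calls, against 67.6% without centring. Among all 18378 genes tested, 2389 were higher and 7210 lower with centring, against 3662 and 2469 without it.

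**Figure D1:**
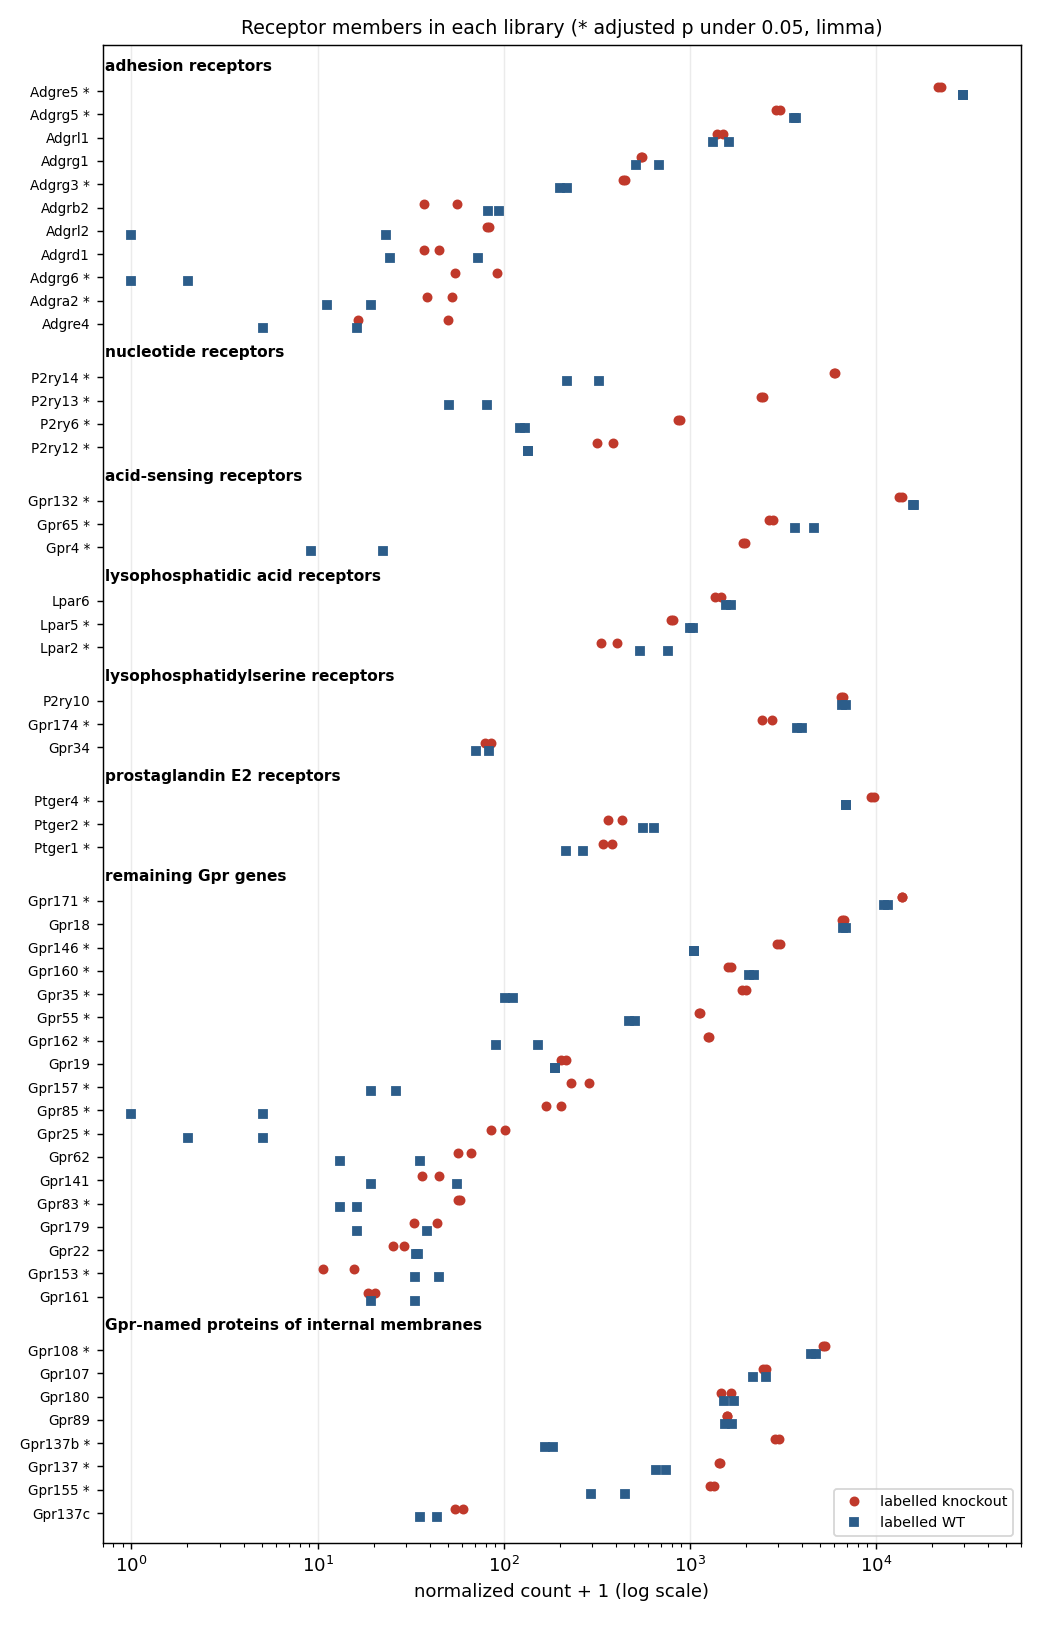
Normalized count + 1 (log axis) of 53 of the 55 members in the 2 libraries labelled knockout (red circles) and the 2 labelled WT (blue squares), grouped by receptor kind and ordered by mean. Most abundant members lie within a narrow span of their WT-labelled values, while P2ry14, P2ry13, Gpr4, Gpr35 and Gpr137b stand far to the right under the knockout label.

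Exons on the opposite strand overlap those of several members, among them Ptger1. Shared exonic bases numbered 511 for Gpr65 (Gm47566). Of the 6648 exonic bases of Ptger4, 82 were shared with Ttc33 and 1015 with the pseudogene Gm15937. Shared bases of Ptger2 numbered 246 (Gm17173) and 144 (Gm49364). They numbered 441 for Adgrg6 (Gm46212) and 73 of 5775 for Adgra2 (Brf2). The counting is not stated to use strand, so reads within such shared bases cannot be told apart.

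The 2 members nearest the threshold on the inside were Gpr161, with a mean of 22.0, and Adgre4, with a mean of 21.0, and the nearest on the outside were Gpr3 at 19.4 and Gpr135 at 17.2. Of the 61 genes left out, 26 were at 0 in all 4 libraries. The other 35 had higher means under the knockout label in 26 cases and under the WT label in 9.

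The nucleotide receptors were higher in all 4 of 4 members (background 19.9% higher). P2ry14, the receptor for UDP-glucose, had 6044 and 5988 in the knockout-labelled libraries, against 219 and 326 in the WT-labelled libraries. This was 22.1-fold higher, with a log2 fold change of 4.49 ± 0.18 (SE) and an adjusted p of 1.08e-05 by limma. P2ry13, a receptor for ADP, had 2468 and 2403 against 49.9 and 80.7, a 37.3-fold difference (log2 5.24 ± 0.23 SE, limma adjusted p = 1.53e-05). P2ry6, the UDP receptor, had 863 and 882 in the knockout-labelled libraries against 129 and 122 in the WT-labelled libraries, 6.96-fold higher (log2 2.79 ± 0.13 SE, limma adjusted p = 1.98e-05). P2ry12, the ADP receptor of platelets and microglia, had 318 and 384 against 134 and 135 and was 2.61-fold higher (limma adjusted p = 0.00141). In each of these 4 genes both knockout-labelled libraries lay above both WT-labelled ones, as in all 23 members called higher. With any 1 library left out, the log2 fold change was 4.20 to 4.77 for P2ry14, 4.90 to 5.58 for P2ry13 and 2.75 to 2.83 for P2ry6. In the same libraries the summed plasmacytoid dendritic cell markers were 15.0-fold higher.

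P2ry14, P2ry13 and P2ry12 lie near Gpr171 on chromosome 3, all on the minus strand within 166 kb (mm10; positions here and below from the GENCODE M21 annotation of GRCm38). In order along the chromosome these are Gpr171 (59096448 to 59101821), P2ry14 (59113855 to 59153618), P2ry13 (59207892 to 59210882) and P2ry12 (59216272 to 59262871). Gpr171, a receptor for the peptide BigLEN that restrains mouse T cells, was the most abundant of these 4 genes and had 13768 and 13906 in the knockout-labelled libraries against 11086 and 11689 in the WT-labelled ones. Its fold was 1.22 (log2 0.28 ± 0.04 SE, limma adjusted p = 0.00267), and median centring turned the sign to -0.019. Without knockout-labelled replicate 1 or 2 its adjusted p was 0.0700 and 0.0800. These 4 genes thus ranged from Gpr171, 1.22-fold higher, to P2ry13, 37.3-fold higher. Med12l, on the opposite strand and sharing 9 exonic bases with P2ry12, had 859 and 841 against 1126 and 1079, a log2 fold change of -0.37.

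**Figure D2:**
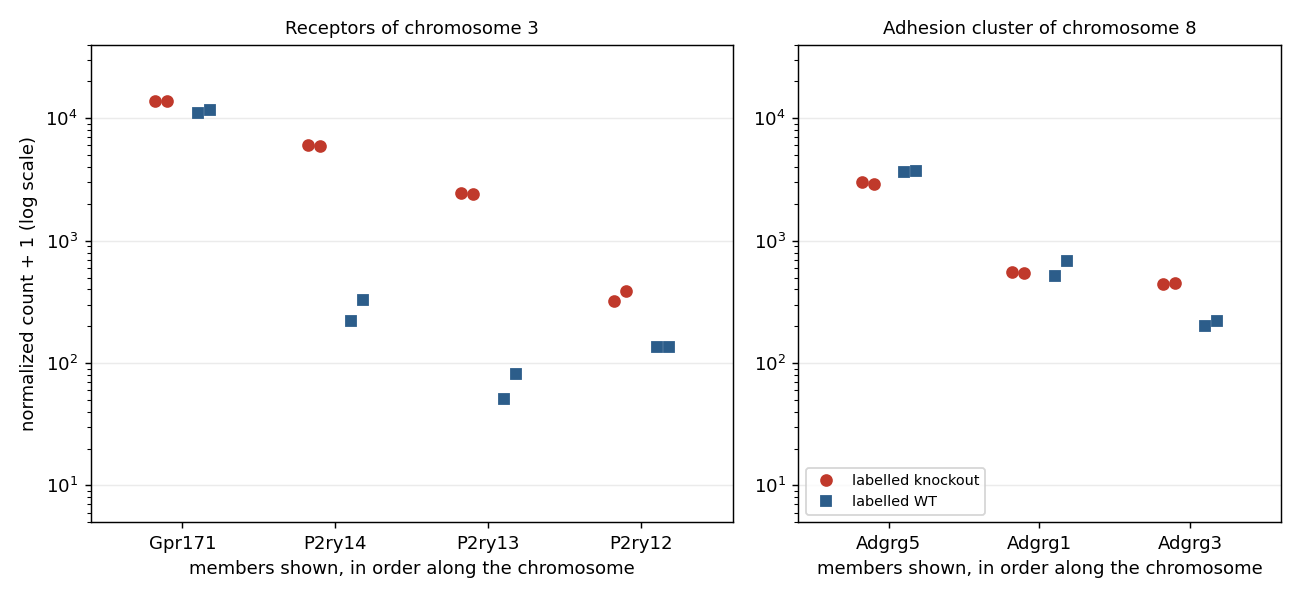
Normalized count + 1 (log axis) of receptor genes of 2 regions, in order along the chromosome, in the libraries labelled knockout (red circles) and WT (blue squares). On chromosome 3 P2ry14, P2ry13 and P2ry12 are higher under the knockout label while Gpr171 differs 1.22-fold, and on chromosome 8 Adgrg5 is lower and Adgrg3 higher.

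The promoter windows of the ADP and UDP-glucose receptors of this cluster are shown because 3 neighbours were higher together, and that of Gpr4 because it had the largest log2 fold change at a pseudocount of 1. These windows were chosen after the motif search described below had been run. The order of log2 fold changes depends on the setting: with a pseudocount of 0.1 Gpr85 (8.16) and Adgrg6 (7.72) stood above Gpr4 (7.20), and with DESeq2 Adgrg6 (7.15) stood above Gpr4 (7.04). Each window runs from 250 bases before to 50 bases after a transcript start, from RefSeq on GRCm38.p6. Capitals mark a match to 1 of 4 motifs searched on both strands, which can overlap one another: an interferon response element (GAAA, any 2 bases, GAAA), a composite IRF and ETS element (GGAA, any 2 bases, GAAA), the PU.1-like AGGAAGT and the E-box CAGGTG. The P2ry14 window is the 1 of its 4 that holds a match.
P2ry12 (chr3:59262936-59263235, minus strand): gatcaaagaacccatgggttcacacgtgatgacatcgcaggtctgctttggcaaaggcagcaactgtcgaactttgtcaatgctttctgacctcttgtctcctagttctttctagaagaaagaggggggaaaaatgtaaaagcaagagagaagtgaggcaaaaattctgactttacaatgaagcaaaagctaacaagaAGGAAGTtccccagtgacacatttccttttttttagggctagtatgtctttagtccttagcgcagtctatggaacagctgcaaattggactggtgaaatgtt
P2ry13 (chr3:59210833-59211132, minus strand): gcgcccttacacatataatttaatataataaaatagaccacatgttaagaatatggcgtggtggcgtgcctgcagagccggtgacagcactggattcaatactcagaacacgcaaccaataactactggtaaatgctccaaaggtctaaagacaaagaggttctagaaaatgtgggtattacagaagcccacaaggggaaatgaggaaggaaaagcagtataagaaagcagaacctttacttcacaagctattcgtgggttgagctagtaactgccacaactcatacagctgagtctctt
P2ry14 (chr3:59131279-59131578, minus strand): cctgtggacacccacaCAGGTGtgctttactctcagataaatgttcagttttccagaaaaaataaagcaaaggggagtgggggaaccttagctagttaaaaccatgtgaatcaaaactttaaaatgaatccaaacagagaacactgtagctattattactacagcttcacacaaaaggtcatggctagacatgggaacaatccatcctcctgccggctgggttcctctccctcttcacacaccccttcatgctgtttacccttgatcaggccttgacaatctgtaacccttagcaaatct
Gpr4 (chr7:19212288-19212587, plus strand): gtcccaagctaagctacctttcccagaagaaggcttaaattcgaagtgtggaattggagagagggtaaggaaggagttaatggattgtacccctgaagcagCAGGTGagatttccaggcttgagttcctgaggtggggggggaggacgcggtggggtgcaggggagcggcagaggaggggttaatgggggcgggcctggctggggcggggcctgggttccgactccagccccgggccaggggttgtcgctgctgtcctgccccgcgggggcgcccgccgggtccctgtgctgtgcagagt
P2ry12 holds a PU.1-like match, P2ry14 and Gpr4 hold an E-box each, and these letters are not in the P2ry13 window. RefSeq windows were matched for 44 of the 55 members. Of those 44, 2 hold the interferon response element (Gpr18 and Gpr19), 0 the composite element, 10 the PU.1-like motif and 13 the E-box. Among all 27025 genes with a window the shares were 3.99%, 3.16%, 10.7% and 22.6%. A match is a description of these letters and not of binding.

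The acid-sensing receptors split. Gpr4 (chromosome 7, 19212538 to 19224174, plus strand), known from blood vessel cells, had 1979 and 1939 in the knockout-labelled libraries against 21.4 and 8.17 in the WT-labelled libraries. It was 133-fold higher, with a log2 fold change of 7.10 ± 0.40 (SE) and a limma adjusted p of 4.91e-05. From 29 reads under the WT label, the 95% interval of this ratio was 92.1 to 198 (exact binomial, counting error only). The log2 fold change was 7.74 without WT-labelled replicate 1 and 6.45 without replicate 2 of that label. It entered the group through the knockout-labelled libraries alone. Gpr65 and Gpr132 were abundant in both groups and lower under the knockout label. Gpr65, an acid sensor of lymphocytes that raises cyclic AMP, had 2821 and 2674 against 3676 and 4659, or 65.9% of the WT-labelled level (limma adjusted p = 0.00824). Gpr132, a proton and lipid sensor of the same subfamily, had 13332 and 13842 against 15939 and 16119, or 84.8% (limma adjusted p = 0.00345). The groups did not overlap for any of these 3 genes, as for every member called. Leaving out knockout-labelled replicate 1 or 2 gave adjusted p of 0.117 and 0.149 for Gpr65 and 0.0747 and 0.0531 for Gpr132. The summed T cell markers stood at 64.4% of their WT-labelled level in the same libraries.

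Of the receptors for lysophosphatidic acid and lysophosphatidylserine, 3 of 6 were lower and 3 did not pass (background 13.4% lower). Lpar2 had 331 and 404 in the knockout-labelled libraries against 538 and 766 in the WT-labelled libraries, a log2 fold change of -0.81 ± 0.20 (SE) with a limma adjusted p of 0.0220. Lpar5, which dampens antigen receptor signalling in mouse CD8+ T cells, had 797 and 810 against 1044 and 1007, or 78.3% of the WT-labelled level (limma adjusted p = 0.0200). Lpar6 had 1472 and 1371 against 1569 and 1663 and did not pass (log2 -0.19, limma adjusted p = 0.113). Among the receptors for lysophosphatidylserine, Gpr174, which restrains T cells, was lower, with 2783 and 2461 under the knockout label against 3755 and 3991 under the WT label (log2 -0.56 ± 0.08 SE, limma adjusted p = 0.00201). P2ry10, which lies 151 kb before Gpr174 on chromosome X and shares its ligand, had 6636 and 6538 against 6884 and 6556, and its groups overlapped (log2 -0.03, limma adjusted p = 0.668). Gpr34 had 84.3 and 78.8 against 82.4 and 70.5, also overlapping. Lpar6 shares 408 exonic bases with Rb1 on the opposite strand, which had 2109 and 2055 against 1655 and 1594. With median centring Lpar6 and P2ry10 passed as lower, at -0.49 and -0.33. With knockout-labelled replicate 1 or 2 left out, the adjusted p was 0.209 and 0.129 for Lpar2 and 0.130 and 0.121 for Lpar5, and Lpar2 had 0.0525 with no filter.

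The prostaglandin E2 receptors moved in both directions. Ptger4, the EP4 receptor, was the abundant one, with 9400 and 9838 in the knockout-labelled libraries against 6903 and 6946 in the WT-labelled libraries, 1.39-fold higher (log2 0.47 ± 0.04 SE, limma adjusted p = 3.36e-04). Ptger2, the EP2 receptor, which like EP4 raises cyclic AMP through Gs, had 363 and 430 against 645 and 564, or 65.6% of the WT-labelled level (log2 -0.61 ± 0.14 SE, limma adjusted p = 0.0174). Ptger1, the EP1 receptor, had 343 and 382 against 217 and 268 (log2 0.58 ± 0.16 SE, limma adjusted p = 0.0353). Its exons overlap exons of the opposite strand, and since the use of strand is not given, the count of Ptger1 is uncertain. Both EP2 and EP1 lost the call without knockout-labelled replicate 1 or 2, at adjusted p of 0.145 and 0.0812 for Ptger2 and 0.153 and 0.232 for Ptger1. Ptger1 also lost it without WT-labelled replicate 1 (0.0765), with no filter (0.0611) and with median centring (log2 0.28, adjusted p = 0.180).

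Of the 11 adhesion receptors, 3 were higher, 2 were lower and 6 did not pass (background 19.9% higher and 13.4% lower). Adgre5, the CD97 antigen that binds CD55, had the highest normalized count of all 55 members, with 22556 and 21498 in the knockout-labelled libraries against 29284 and 29566 in the WT-labelled libraries, or 74.9% (log2 -0.42 ± 0.04 SE, limma adjusted p = 2.79e-04). Adgre5 shares 895 exonic bases with Ddx39 on the opposite strand, which had 7095 and 8219 against 6637 and 6849. Adgrg5 had 3042 and 2907 against 3621 and 3705, or 81.2% (log2 -0.30 ± 0.05 SE, limma adjusted p = 0.00692). It lies on chromosome 8 within 122 kb of Adgrg1 and Adgrg3, in that order on the plus strand (94923694 to 94943280, 94974751 to 95014217 and 95017692 to 95045250). Adgrg1, the GPR56 protein of human cytotoxic lymphocytes, had 555 and 546 against 513 and 686 and overlapped between groups (limma adjusted p = 0.634). Adgrg3, known from granulocytes, had 439 and 448 against 200 and 219, 2.12-fold higher (log2 1.08 ± 0.13 SE, limma adjusted p = 0.00151). The neighbours therefore differed in direction. The summed level of the neutrophil markers was 2219 and 2409 in the knockout-labelled libraries against 97.7 and 133 in the WT-labelled libraries. Of that sum, S100a8 made up 1224 and 1341 against 47.8 and 90.9. The neutrophil marker Ly6g, too low to be tested, had 4.90 and 0 against 0 and 6.13. Adgrg6, a receptor of myelinating Schwann cells, had 53.9 and 91.5 against 1.02 and 0, from 1 read in all under the WT label, and the ratio was 143 with a 95% interval of 25.2 to 5675 (exact binomial, counting error only). Adgra2, a receptor of brain blood vessels, had 51.9 and 38.0 against 18.3 and 10.2 (log2 1.63 ± 0.45 SE, limma adjusted p = 0.0356). Adgra2 and Adgrg6 entered the group through the knockout-labelled libraries alone. Without knockout-labelled replicate 1 or 2 the adjusted p was 0.0639 and 0.0945 for Adgrg5, 0.0818 and 0.126 for Adgrg6 and 0.244 and 0.158 for Adgra2. It was 0.0530 for Adgrg3 without replicate 2 of that group and 0.0645 for Adgra2 without WT-labelled replicate 2. Adgra2 also lost its call with DESeq2 (0.0734) and with no filter (0.0568). The log2 fold change of Adgrg6 was 5.65 ± 0.71 (SE), against 2.94 with a pseudocount of 10 and 7.72 with one of 0.1.

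The adhesion receptors that did not pass included latrophilin 1, Adgrl1, with 1397 and 1506 in the knockout-labelled libraries against 1631 and 1335 in the WT-labelled libraries. Adgrl2 had 80.3 and 82.7 against 0 and 22.5, with 1 WT-labelled library at 0, and its adjusted p was 0.0949 by limma. Adgrb2 had 36.3 and 55.5 against 81.4 and 93.9 (limma adjusted p = 0.0594), and passed as lower with median centring. Adgrd1, with 36.3 and 43.8 against 72.3 and 23.5, overlapped between groups. Adgre4, a receptor of mouse myeloid cells, had 49.0 and 15.6 against 15.3 and 4.08 (limma adjusted p = 0.17).

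**Figure D3:**
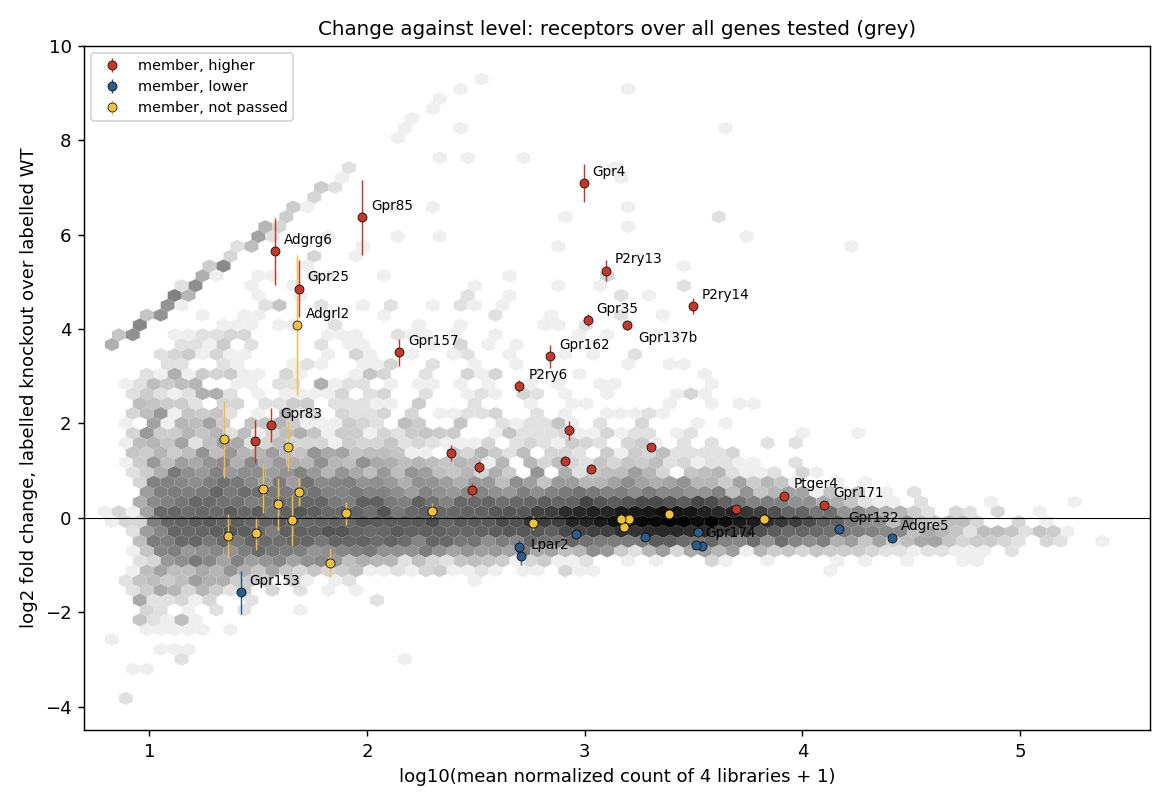
Log2 fold change (labelled knockout over labelled WT) against log10 of the mean normalized count + 1 for 53 of the 55 members (red higher, blue lower, yellow not passed; bars are limma SE) over all 18378 genes tested (grey, darker where more genes lie). Abundant members such as Adgre5 (-0.42) and Gpr171 (0.28) lie near 0, while Gpr4 (7.10), Gpr85 (6.37) and Adgrg6 (5.65), whose order and size depend on the pseudocount, lie far above 0.

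Among the remaining 19 Gpr genes, 9 were higher, 2 were lower and 8 did not pass (background 19.9% higher and 13.4% lower). Gpr35, a receptor for kynurenic acid and other tryptophan products, had 1900 and 2005 in the knockout-labelled libraries against 101 and 111 in the WT-labelled libraries, 18.4-fold higher (log2 4.19 ± 0.12 SE, limma adjusted p = 2.82e-06). Gpr162, an orphan receptor of the brain, had 1269 and 1253 against 152 and 89.9, 10.4-fold higher (limma adjusted p = 1.32e-04). Gpr157, an orphan receptor, had 285 and 230 against 18.3 and 25.5, 11.7-fold higher (limma adjusted p = 2.25e-04). Gpr146, an orphan receptor of the liver that bears on blood cholesterol, had 2936 and 3052 against 1053 and 1056, 2.84-fold higher (limma adjusted p = 1.48e-05). Gpr55, a lysophosphatidylinositol receptor, had 1119 and 1135 against 468 and 504, 2.32-fold higher (limma adjusted p = 1.95e-04). For these 5 genes the groups did not overlap, as for all 23 members called higher. With any 1 library left out, the log2 fold change of Gpr35 was 4.12 to 4.26. Summed conventional dendritic cell markers were 33720 and 33902 under the knockout label against 13992 and 13626 under the WT label. Most of the WT-labelled sum was Itgax, which had 13736 and 13503 against 12573 and 12236, 1.10-fold higher. Single markers of that list ranged from Xcr1, which did not pass, to Clec10a at 40.4-fold and Flt3 at 89.9-fold higher.

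Gpr85 and Gpr25 were nearly silent under the WT label. Gpr85, a conserved receptor of the brain, had 169 and 203 in the knockout-labelled libraries against 0 and 4.08 in the WT-labelled libraries, and from 4 reads the ratio was 91.2 with a 95% interval of 35.3 to 337 (exact binomial, counting error only). Gpr25, a receptor of lymphocytes, had 84.3 and 100.3 against 4.07 and 1.02, and from 5 reads the ratio was 36.2 with an interval of 15.2 to 113. Gpr25 shares 448 exonic bases with Gm26781 on the opposite strand, which had 383 and 391 against 7.12 and 9.19, so reads of this pair cannot be told apart here. Gpr83, a receptor known from regulatory T cells, had 55.8 and 57.4 against 15.3 and 12.3 (log2 1.97, limma adjusted p = 0.00762). It entered the group through the knockout-labelled libraries alone. The lower members were Gpr160 and Gpr153. Gpr160, an orphan receptor, had 1605 and 1661 against 2227 and 2092 (log2 -0.40 ± 0.07 SE, limma adjusted p = 0.00527). Gpr153 had 14.7 and 9.73 against 32.6 and 43.9 (log2 -1.58 ± 0.45 SE, limma adjusted p = 0.0378). Gpr153 entered the group through the WT-labelled libraries alone. Leaving out knockout-labelled replicate 1 or 2 gave adjusted p of 0.0768 and 0.0895 for Gpr85, 0.0738 and 0.0886 for Gpr25, 0.0977 and 0.105 for Gpr83, 0.0828 and 0.0717 for Gpr160 and 0.109 and 0.175 for Gpr153. It was 0.119 for Gpr153 without WT-labelled replicate 2. Gpr153 also lost its call with the replicate block (0.0646), with DESeq2 (0.0898) and with no filter (0.0518). The log2 fold changes without WT-labelled replicate 1 and without replicate 2 were 5.19 and 7.54 for Gpr85 and 5.52 and 4.20 for Gpr25, and with a pseudocount of 10 they were 4.04 and 3.03.

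Gpr18, a lymphocyte receptor with proposed lipid ligands, was abundant and overlapped between groups, with 6725 and 6586 in the knockout-labelled libraries against 6705 and 6900 in the WT-labelled libraries (log2 -0.03, limma adjusted p = 0.609), and with median centring it passed as lower at -0.33. Gpr19 had 203 and 215 against 188 and 187 (limma adjusted p = 0.499). Gpr62 had 55.8 and 66.2 against 12.2 and 34.7 (limma adjusted p = 0.0702). Gpr22, Gpr141, Gpr161 and Gpr179 also did not pass and had log2 fold changes between -0.39 and 0.61 at means of 22.0 to 38.1.

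Of the 8 Gpr-named proteins of internal membranes, 4 were higher, 0 were lower and 4 did not pass (background 19.9% higher and 13.4% lower). Gpr137b, a lysosomal protein, had 2884 and 3028 in the knockout-labelled libraries against 183 and 165 in the WT-labelled libraries, 17.0-fold higher (log2 4.08 ± 0.10 SE, limma adjusted p = 1.48e-06). Its pseudogene Gpr137b-ps had 1956 and 2039 against 318 and 269, and reads of the pair can be split between them. Gpr155, a lysosomal cholesterol sensor, had 1355 and 1281 against 450 and 295, 3.54-fold higher (log2 1.85 ± 0.20 SE, limma adjusted p = 7.44e-04). Gpr137, another lysosomal protein, had 1455 and 1429 against 657 and 743, 2.06-fold higher (log2 1.04 ± 0.09 SE, limma adjusted p = 3.52e-04). Gpr137 shares 524 exonic bases with Bad on the opposite strand, which had 1419 and 1556 against 1279 and 1213. Gpr108, a Golgi protein, had 5235 and 5332 against 4468 and 4792 (log2 0.19 ± 0.05 SE, limma adjusted p = 0.0336), and its sign turned to -0.11 with median centring. Gpr107, Gpr180, Gpr89 and Gpr137c had log2 fold changes of 0.08, -0.04, -0.02 and 0.54 and did not pass, though Gpr180 and Gpr89 passed as lower with median centring (-0.34 and -0.32). Without knockout-labelled replicate 1 or 2 the adjusted p was 0.0546 and 0.0536 for Gpr155 and 0.176 and 0.220 for Gpr108, and Gpr108 had 0.0723 without WT-labelled replicate 1 and 0.0589 with no filter.

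Levels were compared between genes as normalized counts per kb of exon. In the knockout-labelled libraries Gpr171 came first at 6219, followed by Adgre5 at 5863, Gpr132 at 5005, Gpr18 at 4443 and P2ry10 at 2209. The same 5 genes led in the WT-labelled libraries, in the order Adgre5 at 7832, Gpr132 at 5904, Gpr171 at 5118, Gpr18 at 4541 and P2ry10 at 2253. Further down, Gpr4 ranked 13 of 55 under the knockout label and 44 under the WT label, P2ry13 ranked 9 and 34, and P2ry14 ranked 15 and 36. Lpar2 ranked 37 under the knockout label and 23 under the WT label. The summed level of all members, as normalized counts, was 131706 and 131186 in the knockout-labelled libraries against 121070 and 123218 in the WT-labelled libraries.

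Downstream of the receptors, G protein alpha subunits were higher in 5 of 11 genes tested and lower in 0, beside a background of 19.9% higher and 13.4% lower. Gnaq, the Gq subunit, had 1684 and 1908 in the knockout-labelled libraries against 452 and 548 in the WT-labelled libraries (log2 1.85, limma adjusted p = 9.99e-05), and Gna15, of the same class, had a log2 fold change of 0.49. The abundant Gi subunit Gnai2 had 62563 and 62069 against 61426 and 61642 and did not pass. Of 4 phospholipase C beta genes, which act after Gq, 3 were higher, led by Plcb2 with 4396 and 4385 against 1843 and 1641, and Plcb4 had 170 and 163 against 0 and 5.11. Of 11 beta and gamma subunits, 3 were higher and 2 lower, with Gng10 at 0.65, Gng12 at 3.34, Gng2 at -0.40 and Gng5 at -0.42 on the log2 scale.

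RGS proteins, which switch G proteins off, were higher in 3 and lower in 4 of 13. Rgs1 had 27089 and 27010 in the knockout-labelled libraries against 41168 and 40926 in the WT-labelled libraries, and Rgs16 had 9755 and 9898 against 15698 and 15579. Rgs18, an RGS protein of platelets and myeloid cells, had 970 and 948 against 11.2 and 34.7, and Rgs12 had a log2 fold change of 1.36. Receptor kinases and arrestins were higher in 2 and lower in 1 of 7, with Grk3 at 930 and 903 against 21.4 and 49.0, Grk6 at 0.16 on the log2 scale and Arrb2, an arrestin, at -0.24. Adenylyl cyclases were higher in 3 and lower in 1 of 5: Adcy5 had 252 and 335 against 13.2 and 10.2, Adcy6 had 697 and 551 against 103 and 174, and Adcy3 had a log2 fold change of -0.36. Adcy7, the abundant cyclase of these libraries, had 13162 and 12709 against 13369 and 13649 and did not pass. Phosphodiesterases of cyclic AMP were higher in 2 of 9 (Pde4a at 1.10 and Pde8a at 0.60) and lower in 2 (Pde4d at -0.60 and Pde3b at -0.51).

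Of 3 RhoGEFs of the G12/13 arm, Arhgef11 was higher (log2 1.66) and Arhgef1 lower (log2 -0.20). Enzymes that make or break down the ligands were higher in 4 and lower in 2 of 14. Ptgs2, the inducible prostaglandin synthase, had 543 and 489 in the knockout-labelled libraries against 126 and 125 in the WT-labelled libraries, and Ptgs1, its constitutive counterpart, had 170 and 129 against 296 and 356. Plpp1, a phosphatase that degrades lysophosphatidic acid, had a log2 fold change of 1.23, and Entpd1, the ectonucleotidase CD39, of -0.34. No list downstream of the receptors was tested as a set, and the counts stand beside the background above. These counts are without median centring, which shifted log2 fold changes by -0.30. That shift is larger in size than the increases of Gnas (0.12) and Grk6 (0.16), both counted as higher.

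**Figure D4:**
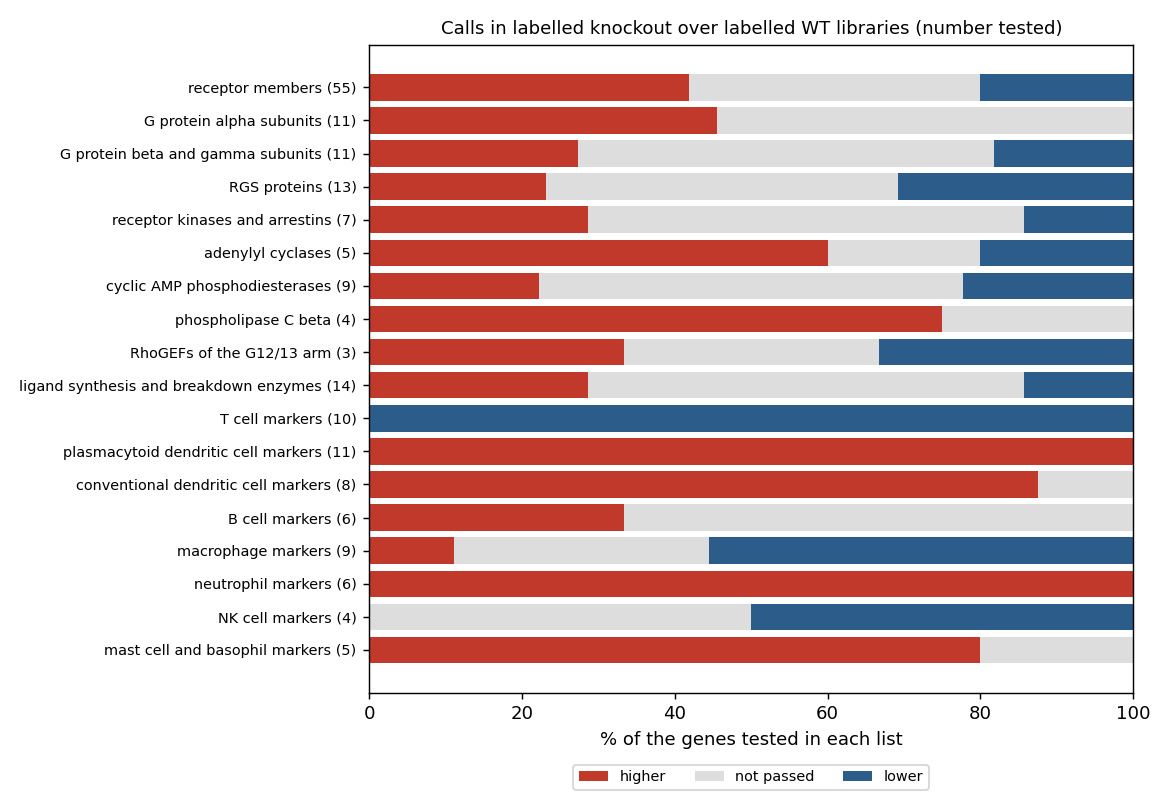
Share of the genes tested in each list that were higher (red), not past the threshold (grey) or lower (blue) in the libraries labelled knockout over those labelled WT, with the number tested in brackets. The 55 receptor members split into 23 higher, 21 not passed and 11 lower, while all 11 plasmacytoid dendritic cell markers were higher and all 10 T cell markers lower.

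In the authors' deposited table, whose log2 values run WT over knockout, 21 members were higher and 9 lower in the knockout columns at its adjusted p under 0.05. The authors' deposited table leaves Lpar5, Ptger1, Adgra2 and Gpr153 past no threshold, and the other 30 calls have the same direction in both.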

How the data were processed

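Polyadenylated RNA of 4 libraries was grouped by the sample titles, 2 labelled knockout and 2 labelled WT. The authors used HISAT2 2.2.1, Trim Galore 0.4.4, DESeq2 and StringTie 2.1.4 with the mm10 build, per the submitters' processing notes. Annotation, settings and use of strand are not given in these notes. The authors deposited normalized counts per library (a signal, not whole-numbered), their mean, and DESeq2's log2 fold change, standard error and Wald score, p-value and adjusted p-value, per the file headers. Values were whole multiples of 1 step per library within 0.01 reads for 100% of values, so reads were recovered; depths stand in the report.

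The test was limma 3.58.1 (eBayes, trend, robust) on log2(normalized count + 1) over the 18378 genes with at least 10 in at least 2 libraries, with Benjamini-Hochberg adjustment over all of them, two-sided, threshold 0.05. The added 1 shrinks fold changes of low genes, while averaging on the log scale can enlarge them where libraries of a group differ. Adgrl2, for example, had a fitted log2 fold change of 4.09 and a ratio of group means of 7.26. Printed folds divide 1 group mean by the other. edgeR 4.0.16 and DESeq2 1.42.0 in R 4.3.3 on the recovered reads were alternatives, beside other pseudocounts, filters, scaling, a replicate block and leaving out each library. The fits were checked on simulated counts. With 2 libraries a group, 0.333 is the smallest two-sided p of an exact permutation test. Intervals from reads are exact binomial (95%) and treat the recovered whole numbers as tallied reads. If these numbers were estimates, the error of estimation is not in the intervals.

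The members and lists were chosen with earlier results of these data known. Named in full were, per receptor kind, up to 3 increases and 3 decreases past the threshold without overlap and the most abundant member; other members have values only, and of other lists up to 2 genes each way with the smallest adjusted p. Gnai2, Adcy7, Med12l, Bad, Gm26781, Ddx39, Rb1 and Gpr137b-ps were named after their values were seen. All 55 members matched GENCODE M21 once by symbol. Some members and an overlapping gene, which enter the counts, are not reported here. Protein sequences were not used here.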

Additional observations from a re-analysis of the deposited data

How the results depend on the processing

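Higher and lower members numbered 23 and 11 in the main test and stayed within 1.5 times these counts with other pseudocounts, filters, variance settings and tools; edgeR (TMM, recovered reads) gave 23 and 11 and made all 34 calls (3691 genes higher and 2652 lower in all), and DESeq2 gave 22 and 10. With median centring, 18 members were lower, all genes numbered 2389 higher and 7210 lower, Gpr108 had -0.11 and Gpr171 -0.019, and the member median was -0.019. That median, 0.28 in the main test, was 0.20 with a pseudocount of 10, 0.38 with a minimum of 50, 0.18 with edgeR TMM and 0.18 with DESeq2. Leaving out each library in turn gave 13 to 24 members higher, 3 to 11 lower, a median of 0.18 to 0.32, 1309 to 4137 genes higher and 630 to 2759 lower; the low ends came without a knockout-labelled library, where the lone library is assumed to vary like the WT-labelled ones. Without knockout-labelled replicate 1 the member calls were 14 and 3, and without replicate 2 they were 13 and 3. The titles give no pairing beyond a shared replicate number, and the correlation of deviations between same-numbered libraries was 0.02 across 18378 genes. With so few libraries this cannot decide whether equal numbers share an animal, culture or batch. With the replicate block 24 members were higher and 10 lower. Over the named members and all alternatives, 2 results turned sign and lost the call, those of Gpr108 and Gpr171 with median centring. Without a turn of sign 46 more lost a call, 2 gained a call and 338 did neither. With 2 libraries a group, genes of few reads are the least certain.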
